A study of Mus musculus with 6 samples.

Results

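The genes described here are the receptors through which catecholamines act and the enzymes that break them down, as measured by RNA sequencing in mouse insulin-secreting cells after chronic epinephrine exposure. They are 8 of the 22298 genes of the expression table, taken by symbol: the α2-adrenergic receptors Adra2a, Adra2b and Adra2c, the α1 receptor Adra1b, the β receptor Adrb1, the trace amine receptor Taar1, and the monoamine oxidases Maoa and Maob. The rule that chose them used no measured value. The 6 samples are MIN6 cells, a mouse insulinoma line that serves as a model of the pancreatic β-cell, in a control group (n = 3) and a chronic epinephrine group (n = 3). The scheme of the study exposed cells to 100 nM epinephrine for 3 days and then withdrew it for 2 days. The day on which RNA was taken for sequencing is not stated, nor is any mock addition to the control cells, and the labels do not say whether the samples of a group were separate cultures. The study's methods describe its replicates in general as biological and its samples as independent, without saying how those for sequencing were grown. The p-values measure the spread between these samples, in a single tumour-derived line.

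Epinephrine and norepinephrine act on G-protein-coupled receptors. The α2 receptors couple to Gi and Go proteins, which lower cAMP and open potassium channels, and the α2A receptor is the main route by which catecholamines suppress insulin release from β-cells. The β receptors and the trace amine receptor couple to Gs and raise cAMP, whereas α1 receptors couple to Gq and raise calcium. Receptor kinases and arrestins switch off occupied receptors, RGS proteins shorten the signal of the G protein, and the monoamine oxidases of the outer mitochondrial membrane deaminate catecholamines, serotonin and trace amines after uptake.

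The study measured Adra2a by RT-qPCR with a primer pair, and the pair is shown because it marks the stretch of the receptor that such an assay reads. On GRCm38 both primers lay in the coding exon of Adra2a (ENSMUSG00000033717), which is at chr19:54044151-54048982 on the plus strand with a coding sequence from 54046215 to 54047609. Each primer differed from its best site at 1 base, which is in capitals in the primers and their sites. The substitutions, counted from 1 at the primer's 5′ end with the primer's base first, were C13T for the forward primer and A18G for the reverse primer.
Forward primer: ggtgtgttggttCccgttct
Forward site, chr19:54047411-54047430, plus strand: ggtgtgttggttTccgttct
Reverse primer: cggaagtcgtggttgaaAatg
Reverse site, chr19:54047540-54047560, minus strand: cggaagtcgtggttgaaGatg
The stretch between them on the genome was 150 bases long (chr19:54047411-54047560, plus strand), and here the capitals mark both primer sites.
Adra2a stretch: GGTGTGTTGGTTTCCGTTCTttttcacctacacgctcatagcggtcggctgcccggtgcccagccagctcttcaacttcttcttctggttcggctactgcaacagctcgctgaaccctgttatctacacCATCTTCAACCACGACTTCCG
At the best ungapped match in the other receptors, the forward primer had 3 mismatches in Adra2b and 4 in Adra2c, and the reverse primer 2 in Adra2b and 6 in Adra2c. Each of the other adrenergic receptors examined had at least 5 mismatches with either primer. The sequencing values below come from the whole gene, not from this stretch.

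The depth was 15017065 to 17457583 expected counts in the control samples and 15256957 to 18127171 after epinephrine. All 16 β-cell markers passed the filter on low counts, with Ins2 at 24524 to 37104 CPM, the counts scaled to the depth of each sample. Control 1 stood apart: the chi-square per gene between its counts and those of the other controls was 53.7 and 55.3, against 2.43 to 4.84 for the remaining pairs within a group, so values without it are also given where they change a call. Hepatocyte markers were high in controls 2 and 3 (21 of 30 markers, summed level 150 and 308 CPM against 51.2 to 56.9 CPM in the other samples), and skeletal muscle markers in epinephrine samples 1 and 2 (6 of 10, 108 and 78.8 CPM against 2.38 to 5.57 CPM). The summed level of 10 markers of other islet cells, 5 of which passed the filter, moved with the groups. It was 1018 to 1551 CPM in the controls and 1960 to 2159 CPM after epinephrine. Most of this sum was Ttr, at 837 to 1334 CPM in the controls and 1556 to 1744 CPM after epinephrine. The part of these markers in the results was not tested.

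In these cells the α2A receptor was the only one of the adrenergic receptors examined with more than a trace of RNA. FPKM scales a level to transcript length and to the depth of the sample, and Maob had the highest mean FPKM of the 8 genes. Maob ranged from 80.2 to 127 FPKM over the 6 samples and Adra2a from 59.9 to 110 FPKM, so these ranges overlapped. Maoa followed at 5.40 to 7.57 FPKM and Taar1 at 1.96 to 4.94 FPKM, and neither range overlapped that of a neighbour in this order. Adra2b lay between 0.07 and 0.19 FPKM and Adra2c between 0 and 0.09 FPKM. In each sample the FPKM level of Adra2a was 443.7 to 887 times that of Adra2b, an imprecise ratio because Adra2b had only 4 to 11 counts.

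**Figure D1:**
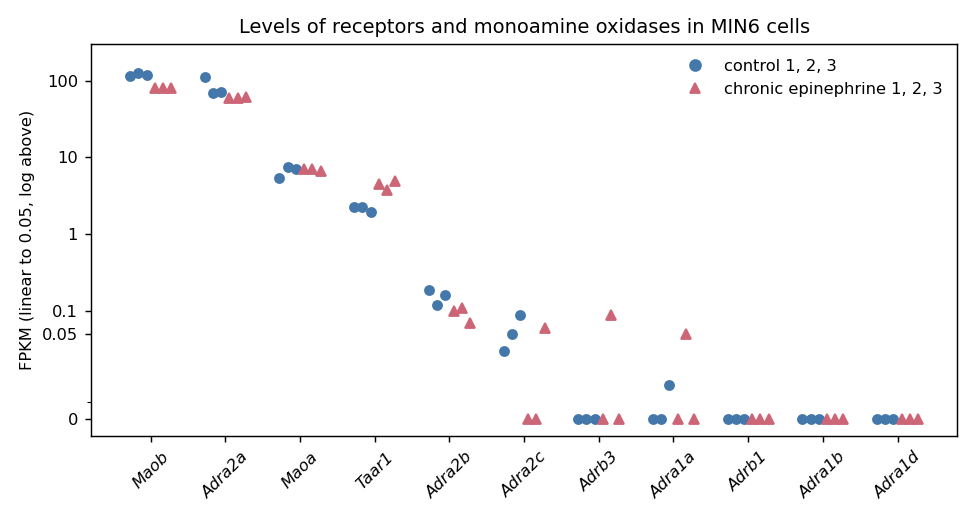
Levels of the adrenergic receptors examined, Taar1 and the monoamine oxidases in the 6 samples, in FPKM on an axis that is linear up to 0.05 and logarithmic above; each point is 1 sample, circles for control and triangles for chronic epinephrine. Maob and Adra2a lie at 59.9 to 127 FPKM, Maoa and Taar1 at 1.96 to 7.57 FPKM, and the other adrenergic receptors plotted at or below 0.19 FPKM.

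The receptors that were not expressed, or nearly so, were most of those examined. Of 8 adrenergic receptor genes, 7 had at most 11 counts in every sample and only Adra2a could be tested. Adra1b (ENSMUSG00000050541, chr11:43774606-43901210, minus strand), an α1 receptor best known from liver and smooth muscle, had 0 counts in all 6 samples, also in controls 2 and 3, where hepatocyte markers were high. Adrb1 (chr19:56722199-56733113, plus strand), the β1 receptor of the heart, had 0 counts in all 6 samples as well. Outside the 8 genes, the α1 receptor Adra1d was also at 0 in every sample. A count of 0 allows up to 3 counts in a library, which was 0.168 to 0.198 CPM here and covers counting error only.

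Adra2b (chr2:127363208-127367221, plus strand) had 11, 8 and 10 counts in the controls and 7, 8 and 4 after epinephrine. Adra2c (chr5:35278319-35281763, plus strand) had 2, 3 and 5 counts in the controls and 0, 0 and 3 after epinephrine. Both α2 subtypes were thus at the edge of detection in both groups, and a difference was not detectable at this depth: without the filter on low counts, edgeR's quasi-likelihood test gave an FDR of 0.619 for Adra2b and 0.578 for Adra2c. The other receptors with any count were Adra1a, with 1 count in control 3 and 4 in epinephrine sample 2, and Adrb3, with 3 counts in epinephrine sample 2.

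Of the 8 genes, 4 passed the filter (Adra2a, Taar1, Maoa and Maob), and 2 of these changed at an FDR under 0.05 by edgeR's quasi-likelihood test: Taar1 was upregulated and Maob was downregulated. Over all 12747 genes tested, 2.63% changed at this threshold, 2.02% upward and 0.612% downward. The control and epinephrine samples did not overlap for 3 of the 4 tested genes (all but Maoa), against 27.3% of all genes tested, and the same 3 had an unadjusted p under 0.05, against 17.1%. Only Taar1 also changed at least 2-fold, as did 0.722% of all genes. In bulk samples such as these, fewer cells of a type and less RNA per cell cannot be told apart.

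Adra2a was lower in all 3 epinephrine samples than in any control, but the change did not pass the test. Its level was 394, 255 and 265 CPM in the controls and 223, 226 and 233 CPM after epinephrine. The epinephrine samples were close together, while control 1 was far above the other controls. The group means were 304.6 ± 77.4 CPM (SD, n = 3) and 227 ± 4.88 CPM (SD, n = 3). On the log2 scale the difference was -0.42 (SE 0.16, 95% interval -0.79 to -0.06), or -25.4%, with an FDR of 0.221 by edgeR. Permuting the sample labels exactly (two-sided) gave p = 0.1, and 3 samples against 3 cannot go lower. Without control 1 the log2 fold change was -0.19 and passed the test (FDR 0.00504 by edgeR), in a fit in which 21.6% of all genes did, 9.46% downward. The range of FDR over all alternatives was 0.00504 to 0.533. None of the 50-base windows of Adra2a occurred in another gene's transcripts.

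**Figure D2:**
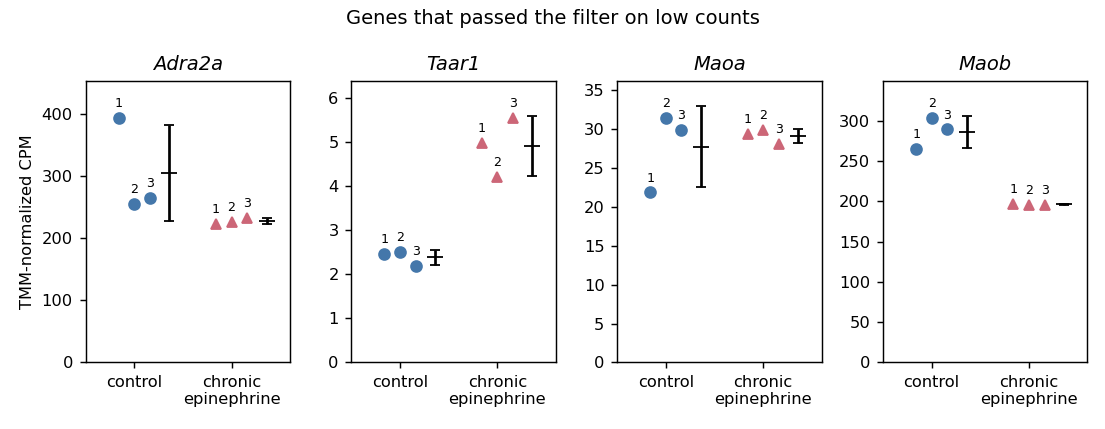
Levels of Adra2a, Taar1, Maoa and Maob in each sample, in CPM after TMM scaling; points are samples with their replicate numbers, and the bars give the mean and SD of each group (n = 3). Taar1 lies higher and Maob lower in every epinephrine sample than in any control, and the groups overlap for Maoa. Adra2a, whose change did not pass the test, also lies lower in every epinephrine sample, with control 1 far above the other controls at 394 CPM.

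Taar1 (ENSMUSG00000056379, chr10:23920356-23921469, plus strand, 1 exon), a receptor for trace amines such as tyramine and phenethylamine that is found in β-cells, was upregulated about 2.05-fold from a low level. It had 38, 44 and 35 counts in the controls and 84, 75 and 84 counts after epinephrine. Scaled to depth, these were 2.46, 2.51 and 2.19 CPM in the controls and 4.98, 4.20 and 5.55 CPM after epinephrine. The lowest epinephrine sample was above the highest control, and control 1 did not stand apart from the other controls. The group means were 2.39 ± 0.174 CPM and 4.91 ± 0.678 CPM (SD, n = 3 each). On the log2 scale the rise was 1.03 (SE 0.18, 95% interval 0.62 to 1.45; FDR 0.0236 by edgeR), and the exact permutation p was at its minimum of 0.1. The difference kept its direction under every alternative tried. It lost significance when any library other than control 1 was left out (FDR up to 0.162 by edgeR) and with replicate number as a block (FDR 0.0810). Taar1 stood alone in its family: of the 14 other trace amine receptor genes, 10 had no count in any sample, and the highest count of any was 5.

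The monoamine oxidases lie next to each other on the X chromosome, Maoa at chrX:16619698-16687818 on the plus strand and Maob at chrX:16709282-16817366 on the minus strand, and their annotated exons do not overlap. MAO-A prefers serotonin and norepinephrine as substrates, and MAO-B prefers phenethylamine. Maob (ENSMUSG00000040147) was downregulated by 31.5%, while no difference passed the test for Maoa (ENSMUSG00000025037).

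Maob was at 265, 304 and 289 CPM in the controls and 196.4, 195.9 and 195.8 CPM after epinephrine. All 3 epinephrine samples lay below all controls and within 1 CPM of each other, and control 1 was the lowest control, so its removal widens the difference. The means were 286 ± 19.5 CPM and 196 ± 0.338 CPM (SD, n = 3 each), which gave -0.55 on the log2 scale (SE 0.08, 95% interval -0.74 to -0.35; FDR 0.0136 by edgeR; exact permutation p = 0.1). As with Taar1, the call was lost when any library other than control 1 was left out (FDR up to 0.134 by edgeR) and with replicate number as a block (FDR 0.0543), with log2 fold changes of -0.60 to -0.51 on leaving out a library. The level in epinephrine sample 3, where muscle markers were low, was within 1 CPM of those in samples 1 and 2, and the lowest control level was in control 1, where hepatocyte markers were at 56.9 CPM. The part of these markers in the difference was not tested.

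Maoa was at 21.9, 31.5 and 30.0 CPM in the controls and 29.4, 29.9 and 28.1 CPM after epinephrine. The groups overlapped, and control 1 was the lowest sample. The means were 27.8 ± 5.17 CPM and 29.1 ± 0.933 CPM (SD, n = 3 each), which gave 0.07 on the log2 scale (SE 0.14, 95% interval -0.25 to 0.38; FDR 0.844 by edgeR; exact permutation p = 1). Without control 1 the sign reversed to -0.08 (FDR 0.544 by edgeR). Of the 50-base windows of Maoa, 3.23% occurred in transcripts of other genes, and none of Maob.

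The balance of both enzymes can be given within a sample. The ratio of Maob to Maoa in FPKM was 21.0, 16.8 and 16.7 in the controls and 11.6, 11.3 and 12.1 after epinephrine. Every epinephrine sample had a lower ratio than every control, also without control 1. The mean fell from 18.2 ± 2.44 to 11.7 ± 0.380 (SD, n = 3 each), with an exact two-sided permutation p of 0.1, the smallest possible. The change in the log2 ratio was -0.63.

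**Figure D3:**
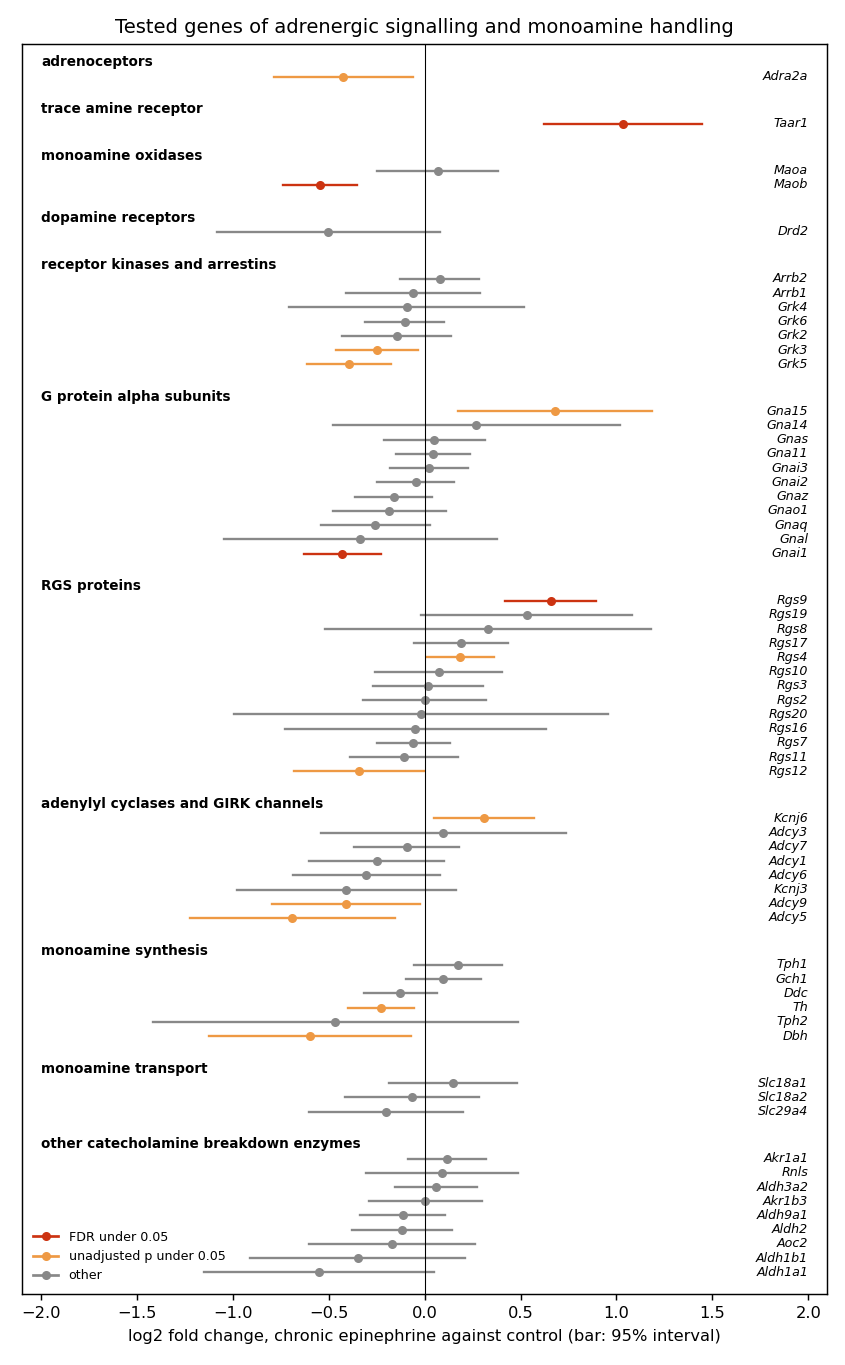
Log2 fold change of epinephrine against control with its 95% interval for the tested receptors and monoamine oxidases and for all 58 tested genes of the surrounding pathway, by list; red marks an FDR under 0.05 by edgeR and orange an unadjusted p under 0.05. Among the red points, Taar1 and Rgs9 lie above 0 and Maob and Gnai1 below 0.

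The rest of the pathway was read from lists of 96 further genes, of which 58 passed the filter. Of these, 1 was upregulated (Rgs9) and 1 downregulated (Gnai1) at an FDR under 0.05 by edgeR, or 3.45%, against 2.63% of all genes. The median log2 fold change over the 58 genes was -0.08, against -0.00 over all genes tested, and 19 of the 58 (32.8%) had groups that did not overlap, against 27.3% of all genes. At an unadjusted p under 0.05 were 12 of the 58 (20.7%), against 17.1% of all genes. The counts of the lists are descriptions. Without control 1, 11 of 58 listed genes (19.0%) were at an FDR under 0.05 by edgeR, against 21.6% of all genes in that fit.

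Among the proteins that carry the receptor signal, Gnai1, a Gi α subunit that inhibits adenylyl cyclase, fell from 26.6, 26.3 and 27.3 CPM in the controls to 20.1, 20.2 and 19.4 CPM after epinephrine. The groups were tight and did not overlap, and the difference was -0.43 on the log2 scale (SE 0.09; FDR 0.0421 by edgeR). Under the alternatives its FDR ranged from 0.000455 to 0.233, and it passed in 5 of 12. Of the 11 Gα genes, all tested, no other passed by edgeR with all libraries: Gnas, the Gs α subunit and the most abundant, had a log2 fold change of 0.05 (FDR 0.854), and Gna15, a Gq family subunit, 0.68 (FDR 0.169). Without control 1 both passed, as did 21.6% of all genes in that fit: Gnas at 0.18 (FDR 0.00508 by edgeR) and Gna15 at 0.84 (FDR 0.0205 by edgeR).

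Rgs9, which speeds up the switching off of Gi and Go, rose from 45.1, 51.3 and 56.4 CPM to 76.1, 79.5 and 85.7 CPM. Every epinephrine sample exceeded every control, and the difference was 0.66 on the log2 scale (SE 0.10; FDR 0.0145 by edgeR). Its FDR ranged from 1.49e-07 to 0.111 over the alternatives and it passed in 8 of 12. Of 13 RGS genes tested, the others named by rule did not pass with all libraries by edgeR: Rgs4 had a log2 fold change of 0.19 (FDR 0.264), Rgs12 -0.34 (FDR 0.289) and Rgs3, which had the highest mean FPKM of the list although Rgs4 was higher in all but control 1 and epinephrine sample 2, 0.02 (FDR 0.958). Without control 1, a fit in which 21.6% of all genes passed, Rgs4 at 0.16 (FDR 0.0376 by edgeR) and Rgs3 at 0.17 (FDR 0.0484 by edgeR) did so. Rgs12 was at -0.16 (FDR 0.226 by edgeR) in that fit, and Rgs3 was below 0 under other alternatives.

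None of the 7 receptor kinases and arrestins tested passed by edgeR with all libraries, and 2 had an unadjusted p under 0.05, a threshold that 17.1% of all genes met. The log2 fold change of Grk5 was -0.39 (SE 0.10; FDR 0.0790 by edgeR), Grk3 -0.25 (FDR 0.218) and Grk2, the kinase first named for the β-adrenergic receptor and the most abundant by FPKM, -0.15 (FDR 0.597). The values of Grk5 were 81.4, 73.3 and 66.0 CPM in the controls and 56.0, 55.6 and 56.5 CPM after epinephrine, with no overlap. Grk5 passed by the Wald test of DESeq2 (FDR 0.0163), which called 729 genes in all. Without control 1, where 21.6% of all genes passed, both Grk5 (-0.31, FDR 0.000435 by edgeR) and Grk3 (-0.16, FDR 0.0292 by edgeR) did. Grk2 was at -0.01 (FDR 0.920 by edgeR) in that fit.

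Of 8 adenylyl cyclases and GIRK potassium channels tested, none passed by edgeR with all libraries. An unadjusted p under 0.05 was found for 3 (17.1% of all genes), and none of those 3 passed by DESeq2. The cyclases Adcy5 and Adcy9, which make cAMP, had log2 fold changes of -0.69 (FDR 0.183) and -0.41 (FDR 0.262), and the channel subunit Kcnj6 0.31 (FDR 0.214). Without control 1, Adcy5 was at -0.45 (FDR 0.211 by edgeR) and Adcy9 at -0.17 (FDR 0.0521 by edgeR). The only dopamine receptor that passed the filter was Drd2, with a log2 fold change of -0.50 (FDR 0.361; -0.33 without epinephrine sample 1), at 1.82 ± 0.104 CPM in the controls and 1.28 ± 0.312 CPM after epinephrine (SD, n = 3 each).

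The lists of synthesis, transport and other breakdown held no gene past the threshold by edgeR with all libraries, with 6, 3 and 9 genes tested and 2, 0 and 0 at an unadjusted p under 0.05 (17.1% of all genes). Th, the rate-limiting enzyme of catecholamine synthesis, was at 268, 257 and 262 CPM in the controls and 220, 229 and 224 CPM after epinephrine. These groups did not overlap, with a log2 fold change of -0.23 (FDR 0.179 by edgeR). Th passed by the Wald test of DESeq2 (FDR 0.0348), which called 729 genes in all. It also passed, at -0.21, without control 1 (FDR 0.00254 by edgeR), as did 21.6% of all genes in that fit. Dbh, which makes norepinephrine from dopamine, had -0.60 (FDR 0.232), Ddc, which makes dopamine, -0.13 (FDR 0.488; without control 1 -0.17, FDR 0.0108 by edgeR), and Pnmt, the enzyme that makes epinephrine, had 0 counts in every sample. The transporter Slc29a4 had a log2 fold change of -0.20 (FDR 0.613), which turned to 0.06 (FDR 0.552) without control 1. That of the aldehyde-reducing enzyme Akr1a1 was 0.12 (FDR 0.556), and 0.08 to 0.17 on leaving out a library.

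**Figure D4:**
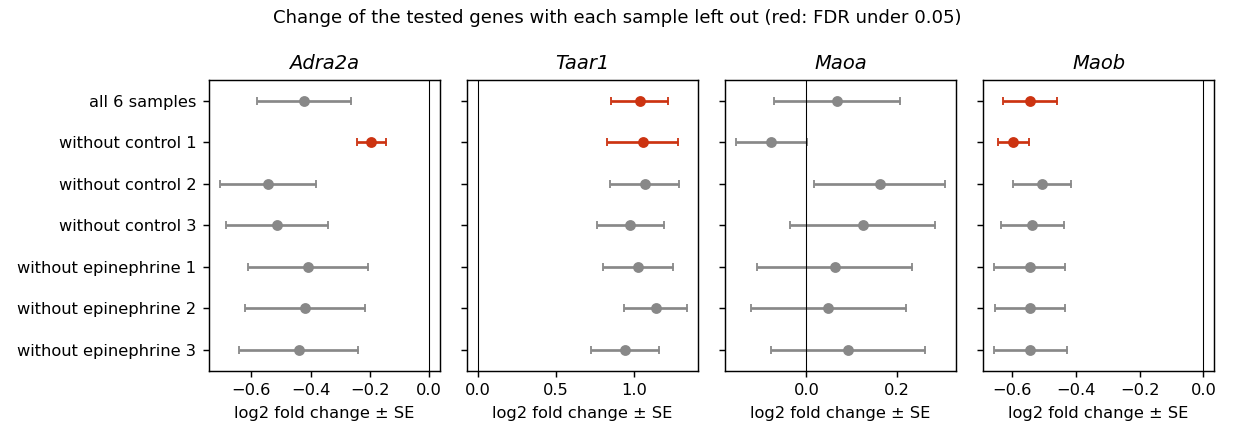
Log2 fold change (bars, SE) of Adra2a, Taar1, Maoa and Maob with all 6 libraries and with each library left out in turn, each gene on its own axis; red points have an FDR under 0.05 by edgeR. Taar1 stays between 0.94 and 1.14 and Maob between -0.60 and -0.51, and Adra2a moves to -0.19 and Maoa to -0.08 without control 1.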

How the data were processed

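The authors deposited expected counts per gene, not normalized across samples, together with FPKM values, which the authors scaled to transcript length and depth. The submitters' processing notes name GRCm38, and the aligner, counter and annotation are not given in the sources used here. Positions and sequences came from GENCODE mouse release 21 (GRCm38), which held 22255 of the 22298 identifiers. Groups came from the sample titles, the dose from the study's methods and the days from its results section. Expected counts (8.34% not whole) were rounded, filtered with filterByExpr at its defaults, scaled by TMM and tested in R 4.3.3 with edgeR 4.0.16 (quasi-likelihood test), all 6 samples and group as the only term. FDR stands for p-values adjusted by the Benjamini-Hochberg method across 12747 tested genes, with a threshold of 0.05, and the standard error is the log2 fold change divided by the square root of F. CPM values use TMM library sizes. The code was tested on simulated data. Single genes and the ratio of Maob to Maoa also had an exact permutation test over samples, and the ratio used FPKM as deposited. Figures were drawn with matplotlib 3.10.9 in Python 3.11.15.

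The genes named were all 8 genes and 3 other adrenergic receptors. Of each pathway list with a tested gene, those at an FDR or an unadjusted p under 0.05 and the most abundant by FPKM were also named. Ins2, Ttr, Pnmt, Tph1, Tph2, Fbxo21 and Mtcl1 were named outside this rule. Genes and lists were chosen with earlier results of these data known. Same-numbered samples did not deviate together (correlations 0.0502, 0.0677 and -0.0488), so the numbers were not taken as pairs. Alternatives were the size factors of DESeq2 1.42.0, library size only, its Wald test, other count filters, replicate number as a block, leaving out each library, and limma 3.58.1 on log2(FPKM + 1) and log2(FPKM + 0.1). Some genes are not reported here and were left out of the lists and their counts. Columns of the authors' own comparisons were not used.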

Additional observations from a re-analysis of the deposited data

How the results depend on the processing

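Taar1 and Maob passed the threshold under 7 of 8 alternatives that kept all libraries. With replicate number as a block neither passed (Taar1 log2 fold change 1.03, Maob -0.54), no receptor or oxidase was left at an FDR under 0.05 (0 against 2), the listed genes fell to 1 and all genes to 178 from 335. The numbers were not shown to pair the samples. Leaving out 1 library gave 0 to 3 of the receptors and oxidases, 0 to 11 listed genes and 47 to 2798 genes in all, the highest counts without control 1. The log2 fold changes then ranged from 0.94 to 1.14 for Taar1, -0.60 to -0.51 for Maob, -0.54 to -0.19 for Adra2a and -0.08 to 0.16 for Maoa. Maoa reversed without control 1, to a log2 fold change of -0.077. The Wald test of DESeq2 called 729 genes, with 4 listed genes, and no filter left 1 listed gene. Over the other tested genes named in the text, 247 of 276 comparisons kept their direction and side of the threshold, 11 lost a call, 11 gained one and 7 reversed. The reversed log2 fold changes were those of Slc29a4 without control 1 (0.058; -0.35 to 0.06 on leaving out a library), Gnas without control 2 (-0.033; -0.03 to 0.18) and Rgs3 with library size only (-0.012) or without control 2 (-0.078), control 3 (-0.033), epinephrine sample 2 (-0.012) or epinephrine sample 3 (-0.0029). The cause of these differences was not tested.

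Depth limits Adra2b and Adra2c, with at most 11 and 5 counts, and the receptors at 0, for which a library allows up to 0.168 to 0.198 CPM, and 3 samples a group limit every p of the exact permutation test to 0.1 or more.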

Other observations

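Adra2a shared its pattern over the 6 samples with genes of other kinds. By the root mean square difference in log2 CPM centred on each gene's mean, the closest of 12746 genes were Fbxo21, an F-box protein gene, at 0.0358, the adenylyl cyclase Adcy9 at 0.0363 and Mtcl1, a microtubule crosslinking factor gene, at 0.0384. Fbxo21 was at 196 CPM in control 1, 132 and 138 CPM in the other controls, and 110 to 115 CPM after epinephrine. The high control 1 and the lower epinephrine samples seen for Adra2a therefore also appear in these genes. None of them passed the test with all libraries (FDR 0.167 for Fbxo21, 0.262 for Adcy9 and 0.317 for Mtcl1 by edgeR). Without control 1, where 21.6% of all genes passed, Fbxo21 did (-0.25, FDR 0.000917 by edgeR), with Adcy9 at -0.17 and Mtcl1 at -0.12. These genes were chosen for this likeness, so it is a description over 6 libraries.

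Of the enzymes of serotonin synthesis, named after their values were seen, Tph1 was at 17.0, 17.5 and 18.1 CPM in the controls and 18.8, 21.3 and 19.2 CPM after epinephrine. The groups did not overlap, and the log2 fold change of 0.17 did not pass the test (FDR 0.418 by edgeR). On leaving out a library it ranged from 0.12 to 0.21. Tph2 was at 0.686 to 1.94 CPM in the controls and 0.728 to 1.32 CPM after epinephrine, with overlapping groups. Its log2 fold change was -0.46, and on leaving out a library it ranged from -0.80 (without control 2) to -0.12 (without control 1).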
